A study of Mus musculus with 12 samples.

Results

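SR proteins, hnRNPs and the kinases that phosphorylate SR proteins were followed in RNA of the adult mouse paraventricular nucleus (PVN), a hypothalamic cell group that triggers release of stress hormones. Members were all gene symbols that begin with Srsf or Sfrs and a digit, Hnrnp or Hnrp, Luc7l, Tra2a or Tra2b, and the kinases Clk1 to Clk4 and Srpk1 to Srpk3 with the Srrm genes, where at least 1 transcript row averaged 1 RPKM (reads per kilobase and M reads) or more over all libraries. This gave 47 genes of the 23260 in the table, carried by 88 of 30399 transcript rows. Of 48 matching symbols, only Srpk3 stayed out, at a mean of 0.924 RPKM; just inside lay Hnrnpf at a mean of 6.27 RPKM. The members comprised 12 SR proteins, 2 Tra2 proteins, 20 hnRNPs, 4 CLK kinases, 2 SRPK kinases, 3 LUC7-like proteins and 4 SRRM proteins. These roles were assigned by symbol alone, so that every Srsf or Sfrs symbol counts as an SR protein.

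The miR group (replicates 1 to 6) came from zygotes microinjected with a mixture of 9 miRIDIAN microRNA mimics (miR-29c, miR-204, miR-30a, miR-698, miR-193-5p, miR-32, miR-532-3p, miR-30c and miR-375), at 1 ng/uL in total. The PBS group (replicates 7 to 12) came from zygotes that received 1X DPBS without mimics. All animals were C57/Bl6:129S6/SvEvTac hybrid males, born to CD1 dams and sampled at 18 to 20 weeks. Each library held polyadenylated RNA of 1 animal, punched with a 1 mm needle from 2 slices of 300 µm, so that a library mixes all cell types of the punch. The design asks whether exposure of the zygote to these microRNAs leaves a difference in adult PVN mRNA. Litters are not named in the labels, so the p-values measure the spread between these animals only.

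SR proteins carry domains rich in arginine and serine, bind exons and recruit the spliceosome, while many hnRNPs bind exons or introns and repress splice sites. CLK kinases in the nucleus and SRPK kinases, mainly in the cytoplasm, phosphorylate SR proteins and thereby set their location and activity. SRRM proteins are large serine and arginine rich coactivators, among them the neural Srrm3 and Srrm4 that promote microexons, and LUC7-like proteins associate with the U1 snRNP. Many of these genes control their own level: the protein promotes a splice form of its own transcript with an early stop codon, which is degraded by nonsense-mediated decay, or an intron that keeps the transcript in the nucleus.

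Depth, estimated from the smallest increments among low RPKM values, was 22.8 to 45.2 M reads per miR library and 27.6 to 38.2 M per PBS library. The 6 markers of PVN neurons (Oxt, Avp, Crh, Trh, Sim1 and Otp) summed to 1984 to 5160 RPKM in miR, against 2190 to 5779 RPKM in PBS, and none of the markers of 8 cell types was at 0 throughout. Before any comparison, PBS replicates 8, 9, 10 and 12 stood apart from the other 8 libraries. The nuclear noncoding RNA Meg3 had 49.9 to 68.1 RPKM in miR, against 158, 316, 190 and 245 RPKM in these PBS libraries and 50.6 and 58.0 RPKM in PBS replicates 7 and 11. Leng8 had 8.13 to 10.4 RPKM in miR, against 33.6 to 39.5 RPKM in the same 4 libraries and 8.78 and 9.97 RPKM in PBS replicates 7 and 11. Their depth was 31.0 to 38.2 M reads, inside the range of the miR libraries but above PBS replicates 7 (27.6 M) and 11 (30.5 M). The part of depth was not tested. They are not a group of the study, and their values are described without a test.

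Several members have noncoding transcript rows that differ from the coding row by an exon with an early stop codon or by the loss of an exon. These exons are shown because the rows that hold or lack them are followed below. The sequences come from GENCODE M21 transcripts on build GRCm38, matched through the RefSeq accession, and stop at the annotated stop codon, which is in capitals. The Clk1 skipped exon is shown whole and has no capitals.

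Srsf3 added exon: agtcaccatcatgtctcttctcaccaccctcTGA
Srsf7 added exon: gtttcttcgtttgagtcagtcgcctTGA
Clk1 skipped exon: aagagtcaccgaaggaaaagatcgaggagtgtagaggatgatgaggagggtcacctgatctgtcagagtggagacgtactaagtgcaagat
Clk1 exon after the skip: atgaaattgttgatacttTAG

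The Srsf3 stretch is chr17:29039454-29039487 on the plus strand, the first 34 of 456 bases of exon 4 of the transcript matched to NR_036613. The Srsf7 stretch is chr17:80205054-80205081 on the minus strand, the first 28 of 460 bases of exon 4 of the transcript matched to NR_036615. The Clk1 exon is chr1:58420121-58420211 on the minus strand, 91 coding bases that are absent from the transcript matched to NR_027853. Without it the frame shifts and meets the stop codon shown at the end of chr1:58419713-58419733, also on the minus strand, 21 bases into the next exon. An annotated transcript subject to nonsense-mediated decay exists for 35 of the 47 members (74.5%), against 27.3% of the 12976 tested genes found in the annotation. A transcript with a retained intron is annotated for 37 members (78.7%), against 56.2% of those 12976 genes.

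No member differed between miR and PBS past the threshold. With limma on log2(RPKM + 0.5), 0 of 13273 genes passed a Benjamini-Hochberg adjusted p of 0.05 (percent called 0), and none of the 47 members did. The unadjusted p was under 0.05 for 2687 genes (20.2%). At an unadjusted p under 0.05 in limma, 17 members had lower and 3 had higher values in miR, where 11.1% of all genes were lower and 9.12% higher (1477 and 1210 genes). This split moved with the scaling: 1227 genes were lower and 1709 higher after median scaling, with 14 and 4 of the members, and 1070 lower and 494 higher after the correction for GC content, with 23 and 0 of the members. Without a threshold 33 of 47 members were lower in miR, against 47.1% of all genes, and 29 were after median scaling, 32 after quantile normalization and 40 after the GC correction. The background moved too: 52.9% of all genes were higher in miR as deposited. That share was 57.5% after median scaling, 56.5% after quantile normalization and 52.5% after the GC correction. The median log2 difference, miR minus PBS, was -0.04 over the members and 0.01 over all genes tested. The members' median was -0.02 after median scaling, -0.06 after quantile normalization and -0.11 after the GC correction, -0.02 without PBS replicate 9 and -0.07 without PBS replicate 10. Over all genes it was 0.03 after median scaling, 0.02 after quantile normalization and 0.01 after the GC correction. Median scaling shifted every gene by the same amount, so it left the distance between members and all genes unchanged. No member had every miR library above or below every PBS library, as 0.256% (above) and 0.226% (below) of all genes did. The smallest adjusted p of any member in limma was 0.174.

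The roles differed in where their members lay. The 4 CLK kinases and the 4 SRRM proteins were all lower in miR, with median log2 differences of -0.29 and -0.34, and all kept that sign under median scaling, quantile normalization and a correction for GC content, though Clk3 shrank to -0.07 and Srrm3 to -0.29 under the last. The SR proteins were lower in 10 of 12 members, with a median of -0.13, and in 12 of 12 after the GC correction. The hnRNPs were lower in 10 of 20 and higher in 10, with a median of 0.01, and 7 of 20 were lower after median scaling and 13 after the GC correction. The LUC7-like proteins were lower in 3 of 3 members, and in 2 of 3 after median scaling or quantile normalization. The 27 members other than hnRNPs had a median of -0.19. Whether the roles differ from each other was not tested.

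**Figure D1:**
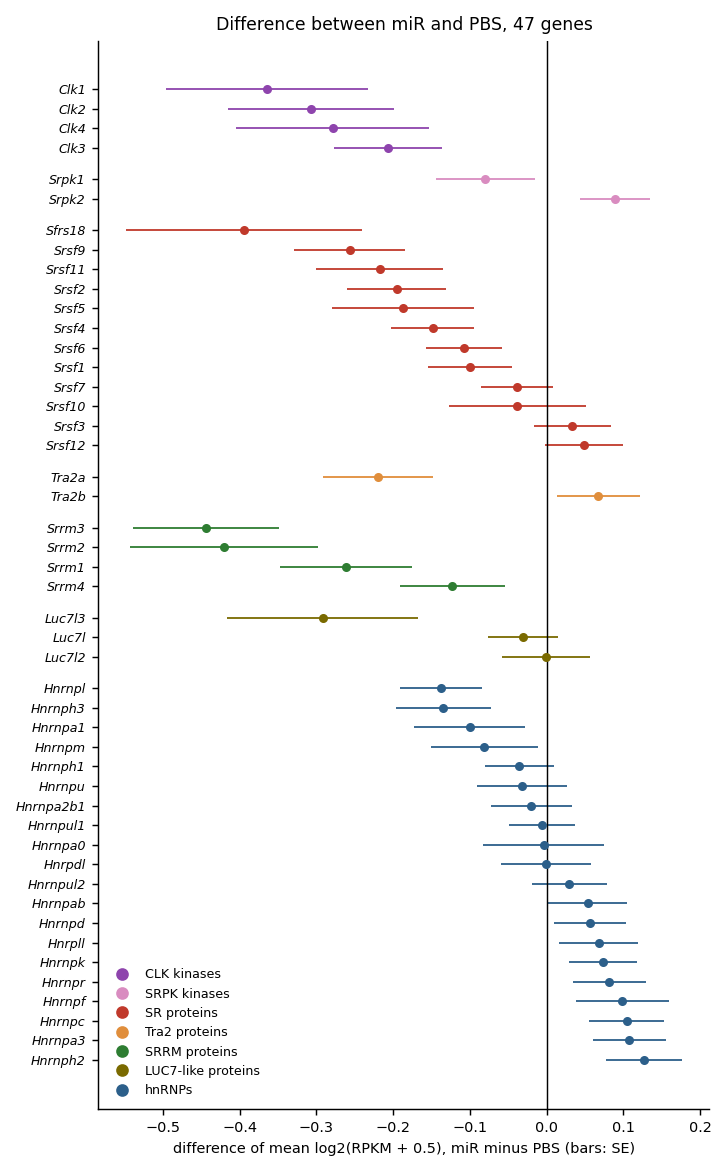
Difference of mean log2(RPKM + 0.5), miR minus PBS, for the 47 genes, ordered within each role; points are the limma estimates and bars are the standard error. All CLK and SRRM genes lie left of 0 under each scaling tried, down to -0.44 for Srrm3, while as deposited the hnRNPs lie between -0.14 and 0.13, with 10 on either side of 0.

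The CLK kinases act on the nuclear pool of SR proteins. Clk1 (chr1:58468832-58480932 on mm9, as the table gives it) had 19.6 to 24.0 RPKM in miR, with a median of 21.7, against 27.3, 40.9, 27.1 and 33.2 RPKM in PBS replicates 8, 9, 10 and 12 and 21.4 and 21.3 RPKM in PBS replicates 7 and 11. Clk4, the paralog closest to it, had 11.04 to 12.9 RPKM in miR, median 11.6, against 13.4, 21.6, 14.4 and 16.0 RPKM in those PBS libraries and 10.98 and 11.4 RPKM in PBS replicates 7 and 11. In both genes the groups overlapped only through PBS replicates 7 and 11, which lay inside or just below the miR range, and PBS replicate 9 was highest. Clk2 had 5.75 to 6.41 RPKM in miR, median 5.96, against 8.28, 8.93, 8.74 and 8.72 RPKM in PBS replicates 8, 9, 10 and 12 and 5.38 and 6.20 RPKM in PBS replicates 7 and 11. Clk3 averaged 15.2 ± 0.859 RPKM in the miR and 17.7 ± 1.98 RPKM in the PBS group (SD, n = 6 each). Clk2 and Clk3 differed from Clk1 and Clk4 in that their 4 high PBS libraries were close to each other, without the large excess of PBS replicate 9. The log2 differences were -0.36 ± 0.13 for Clk1, -0.31 ± 0.11 for Clk2, -0.21 ± 0.07 for Clk3 and -0.28 ± 0.13 for Clk4 (SE), with limma adjusted p from 0.177 to 0.238. Without PBS replicate 9 the difference of Clk4 was -0.16, and after the GC correction that of Clk3 was -0.07.

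The SRPK kinases did not share this pattern. Srpk1 had 13.2 to 15.0 RPKM in miR, median 13.4, against 12.6 to 16.7 RPKM in PBS, median 14.6. Srpk2, the SRPK of highest level in this tissue, had 31.0 to 34.6 RPKM in miR, median 31.6, against 28.4 to 32.8 RPKM in PBS, median 30.4. The groups overlapped in both, and neither kinase had an unadjusted limma p under 0.05. Srpk2 was higher in miR as deposited (log2 difference 0.09) and lower after the GC correction (-0.03).

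Among the serine and arginine rich coactivators, Srrm3 and Srrm2 had the largest differences of all members as deposited. After the GC correction Sfrs18 (-0.49) and Clk1 (-0.48) were larger than Srrm2 (-0.41) and Srrm3 (-0.29). Srrm2 (mm9 chr17:23940154-23961710), a scaffold of nuclear speckles, had 37.6 to 41.6 RPKM in miR, median 38.7, against 51.9, 73.9, 57.8 and 57.7 RPKM in PBS replicates 8, 9, 10 and 12 and 38.5 and 41.5 RPKM in PBS replicates 7 and 11. Srrm1, which bridges exonic enhancers and the spliceosome, had 21.2 to 23.9 RPKM in miR, median 21.7, against 28.0, 30.1, 28.4 and 31.0 RPKM in the same PBS libraries and 21.4 and 22.4 RPKM in PBS replicates 7 and 11. Each of the 4 high PBS libraries exceeded every miR library in both genes, and PBS replicates 7 and 11 lay inside the miR range. Srrm3 (mm9 chr5:136293976-136350642) had 4.79 to 6.34 RPKM in miR, median 5.27, against 8.17, 8.05, 7.57 and 9.26 RPKM in PBS replicates 8, 9, 10 and 12 and 6.58 and 6.08 RPKM in PBS replicates 7 and 11. Its log2 difference was -0.44 ± 0.09 (SE, limma adjusted p = 0.174), and none of the miR libraries reached the PBS median. The values for Srrm2 were -0.42 ± 0.12 (limma adjusted p = 0.174) and for Srrm1 -0.26 ± 0.09 (limma adjusted p = 0.174), again below the PBS median in 6 of 6 miR libraries. Srrm4, the other microexon factor, had 6.49 to 7.10 RPKM in miR, against 6.08 to 8.64 RPKM in PBS, with a log2 difference of -0.12 ± 0.07 (SE, limma adjusted p = 0.310). Its high PBS libraries were not set apart from PBS replicate 11, which had 7.90 RPKM.

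Among the SR proteins Sfrs18 (mm9 chr4:21774730-21803622), counted here by its old symbol and now named Pnisr, outside the Srsf names, varied most. It had 13.2 to 17.2 RPKM in miR, median 13.6, against 16.1, 31.8, 18.4 and 20.9 RPKM in PBS replicates 8, 9, 10 and 12 and 14.4 and 14.9 RPKM in PBS replicates 7 and 11. Its coefficient of variation was 10.5% in miR, against 33.6% in PBS, the highest of all members in that group. Srsf11, which promotes neuronal microexons together with Srrm4, had 16.9 to 18.5 RPKM in miR, median 17.7, against 20.0, 26.1, 19.9 and 23.1 RPKM in the 4 high PBS libraries and 16.8 and 19.2 RPKM in PBS replicates 7 and 11. Srsf5, one of the classical SR proteins, had 34.3 to 39.4 RPKM in miR, median 37.9, against 44.2, 53.1, 42.6 and 48.6 RPKM in the same PBS libraries and 34.0 and 35.9 RPKM in PBS replicates 7 and 11. In each of these genes PBS replicate 9 was the highest library. The log2 differences were -0.39 ± 0.15 for Sfrs18, -0.22 ± 0.08 for Srsf11 and -0.19 ± 0.09 for Srsf5 (SE), with limma adjusted p of 0.201, 0.197 and 0.267. The difference of Srsf5 was -0.12 without PBS replicate 9 and -0.29 after the GC correction.

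Srsf9, one of the short SR proteins, had 11.5 to 13.6 RPKM in miR, median 12.6, against 12.9 to 17.6 RPKM in PBS, median 14.9, and PBS replicate 12 was highest. Srsf2, which recognises exonic enhancers and stays in the nucleus, had 35.3 to 45.5 RPKM in miR, median 41.2, against 43.7 to 54.4 RPKM in PBS, median 46.2. Srsf4 had 18.1 to 20.4 RPKM in miR, median 19.1, against 19.1 to 23.3 RPKM in PBS, median 21.2. The groups overlapped in all of these genes although the PBS median exceeded all 6 miR libraries. Their log2 differences were -0.26 ± 0.07 for Srsf9, -0.20 ± 0.06 for Srsf2 and -0.15 ± 0.05 for Srsf4 (SE), with limma adjusted p from 0.174 to 0.188. After the GC correction Srsf9 was at -0.16 and Srsf4 at -0.05. Srsf6 averaged 22.6 ± 1.11 RPKM in the miR and 24.4 ± 1.49 RPKM in the PBS group, and Srsf1, the prototype of the family, 26.9 ± 0.880 RPKM in the miR and 28.9 ± 2.52 RPKM in the PBS group (SD, n = 6 each). Srsf7 averaged 35.4 ± 1.43 RPKM in the miR and 36.4 ± 2.15 RPKM in the PBS group, and Srsf3, the smallest SR protein, 23.6 ± 1.13 RPKM in the miR and 23.0 ± 1.43 RPKM in the PBS group (SD, n = 6 each). The differences of Srsf6 and Srsf1 were -0.11 and -0.10 as deposited, and -0.21 and -0.22 after the GC correction. Srsf7 and Srsf3 differed by less than the spread between replicates. The remaining Srsf10 and Srsf12 had log2 differences of -0.04 and 0.05. Srsf3 and Srsf12, higher in miR as deposited, were lower after the GC correction (-0.10 and -0.04).

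**Figure D2:**
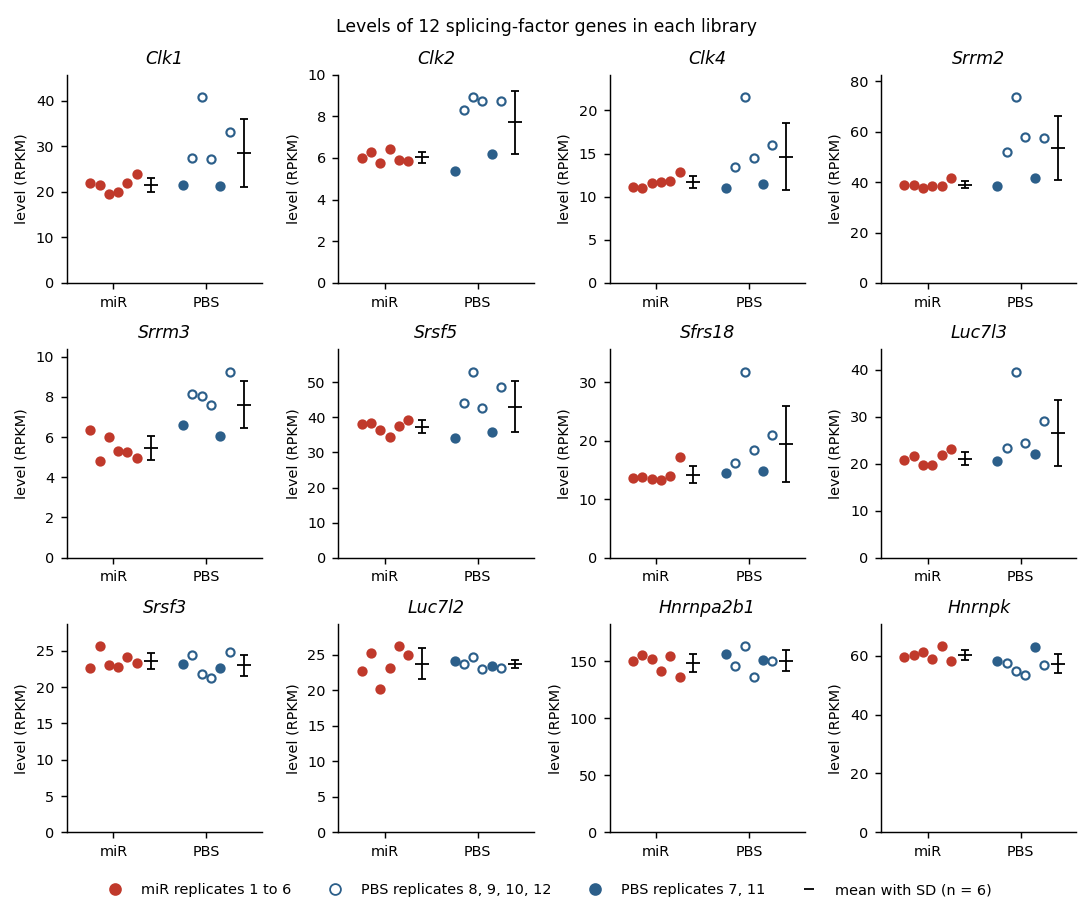
RPKM of 12 genes in every library, miR left of PBS; open circles mark PBS replicates 8, 9, 10 and 12, filled blue circles PBS replicates 7 and 11, and the bar gives the mean with SD (n = 6). In Clk2 and Srrm2 the open circles lie above all other libraries (8.28 to 8.93 and 51.9 to 73.9 RPKM), while they lie among the others in Luc7l2 and below them in Hnrnpk. In Srsf3, PBS replicates 9 and 10 lie below all the others (21.9 and 21.2 RPKM), and PBS replicates 8 and 12 lie among them. In Hnrnpa2b1, 1 open circle is highest (163 RPKM) and the rest lie among the others.

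The Tra2 pair, which bind GA-rich exonic enhancers together with SR proteins, lay on either side of 0 as deposited. Tra2a had 21.4 to 26.4 RPKM in miR, median 23.7, against 24.0 to 31.7 RPKM in PBS, median 27.7 (log2 difference -0.22 ± 0.07, SE, limma adjusted p = 0.174). Tra2b averaged 15.4 ± 0.944 RPKM in the miR and 14.7 ± 0.928 RPKM in the PBS group (SD, n = 6 each), a log2 difference of 0.07 as deposited and -0.05 after the GC correction. Neither passed the test.

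Among the LUC7-like proteins, Luc7l3 (mm9 chr11:94152453-94183225) had 19.6 to 23.0 RPKM in miR, median 21.2, against 23.4, 39.6, 24.4 and 29.1 RPKM in PBS replicates 8, 9, 10 and 12 and 20.7 and 22.1 RPKM in PBS replicates 7 and 11. PBS replicate 9 was highest by far, as in Clk1, Clk4 and Sfrs18. Luc7l had 22.05 to 25.05 RPKM in miR, against 22.9 to 25.3 RPKM in PBS, and Luc7l2 20.2 to 26.2 RPKM in miR and 23.0 to 24.6 RPKM in PBS. The groups overlapped in both of these last genes, and in Luc7l2 the PBS range lay inside the miR range. Luc7l3 had a log2 difference of -0.29 ± 0.12 (SE, limma adjusted p = 0.219), and -0.17 without PBS replicate 9, against -0.03 for Luc7l and -0.00 for Luc7l2, whose sign turned under median scaling and quantile normalization.

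The hnRNPs held the members of highest level, and their log2 differences lay between -0.14 and 0.13 as deposited. After the GC correction they reached -0.23 in Hnrnph3, -0.19 in Hnrnpa1 and -0.15 in Hnrnpu, and after median scaling 0.14 in Hnrnph2. Hnrnpa2b1, a relative of the repressor Hnrnpa1, had 136 to 155 RPKM in miR, median 151, against 136 to 163 RPKM in PBS, median 150. Hnrnph1 averaged 71.5 ± 2.33 RPKM in the miR and 73.4 ± 4.13 RPKM in the PBS group, and Hnrnpu, a nuclear scaffold protein, 70.9 ± 2.91 RPKM in the miR and 72.7 ± 6.87 RPKM in the PBS group (SD, n = 6 each). These 3 genes differed by less than the spread between replicates. Hnrnpl, which binds CA repeats, had 49.0 to 53.5 RPKM in miR, median 51.0, against 59.6, 56.0, 61.0 and 58.5 RPKM in PBS replicates 8, 9, 10 and 12 and 48.8 and 53.4 RPKM in PBS replicates 7 and 11. Hnrnpa1 itself, at a much lower level, had 8.28 to 9.97 RPKM in miR, median 9.10, against 10.2 to 11.2 RPKM in those PBS libraries and 8.16 and 8.89 RPKM in PBS replicates 7 and 11. Hnrnpl and Hnrnpa1 were the hnRNPs in which PBS replicates 8, 9, 10 and 12 lay above all others, with log2 differences of -0.14 ± 0.05 and -0.10 ± 0.07 (SE, limma adjusted p = 0.202 and 0.426). The difference of Hnrnpl was -0.09 after the GC correction, and that of Hnrnpa1 was -0.15 without PBS replicate 7 and -0.07 without PBS replicate 9. Hnrnph3 was the other lower hnRNP with an unadjusted limma p under 0.05, at -0.13 ± 0.06 (SE, adjusted p = 0.246).

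Some hnRNPs were higher in miR. Hnrnph2, the X-linked relative of Hnrnph1, had 29.5 to 35.0 RPKM in miR, median 32.4, against 28.0 to 30.7 RPKM in PBS, median 29.4. Hnrnpa3 had 10.7 to 11.9 RPKM in miR, median 11.1, against 9.86 to 11.3 RPKM in PBS, median 10.3. Hnrnpc, a core protein of nuclear pre-mRNA particles, had 47.5 to 51.4 RPKM in miR, median 49.9, against 40.8 to 49.7 RPKM in PBS, median 46.4. In each the groups overlapped, although no miR library was below the PBS median. Their log2 differences were 0.13 ± 0.05, 0.11 ± 0.05 and 0.10 ± 0.05 (SE), with limma adjusted p of 0.201, 0.230 and 0.246, and after the GC correction they were 0.01 for Hnrnph2, -0.02 for Hnrnpa3 and 0.01 for Hnrnpc. Without PBS replicate 9 the difference of Hnrnpc was 0.07. Hnrnpk, which binds C-rich RNA, had 58.3 to 63.2 RPKM in miR, median 59.8, against 53.5 to 57.5 RPKM in PBS replicates 8, 9, 10 and 12 and 58.2 and 62.8 RPKM in PBS replicates 7 and 11. It was the member in which those 4 PBS libraries all lay below the others. Hnrnpr, Hnrnpf, Hnrpll and Hnrnpd had log2 differences of 0.08, 0.10, 0.07 and 0.06, with limma adjusted p from 0.334 to 0.490, and after the GC correction Hnrnpf was at 0.01 while Hnrnpk, Hnrnpr and Hnrpll turned below 0 (-0.03, -0.04 and -0.03). The other hnRNPs had limma adjusted p from 0.509 to 0.996.

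The position of 4 PBS libraries recurred across the roles. In 14 of the 47 members (29.8%) PBS replicates 8, 9, 10 and 12 were all above the other 8 libraries, against 8.21% of all genes tested, and in 1 member they were all below, against 7.94% of all genes. The 14 were Clk1, Clk2, Clk3, Clk4, Srrm1, Srrm2, Srrm3, Srsf4, Srsf5, Srsf9, Srsf11, Luc7l3, Hnrnpl and Hnrnpa1. The gap was widest in Clk2, where the lowest of these PBS libraries was 1.29 times the highest other library, and next in Srrm2 at 1.25 times. PBS replicate 9 was the highest of the 12 libraries in 23 of 47 members, against 10.7% of all genes, and 8 of the 12 SR proteins were among them. In PBS replicate 9, Sfrs18 stood at 2.30 times, Clk1 and Srrm2 at 1.91 times, Clk4 at 1.88 times and Luc7l3 at 1.87 times the median of the 8 libraries. The coefficient of variation was smaller in miR than in PBS in 40 of 47 members (85.1%), against 66.1% of all genes, with medians of 5.20% in miR, against 8.27% in PBS.

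The astrocyte marker sum also set PBS replicates 8, 9, 10 and 12 apart, whereas the meningeal fibroblast sum did not, because PBS replicate 11 lay inside their range. The summed level of 5 astrocyte markers was 276 to 329 RPKM in miR, against 238 to 267 RPKM in PBS replicates 8, 9, 10 and 12 and 310 RPKM in each of PBS replicates 7 and 11. The 5 meningeal fibroblast markers summed to 6.45 to 8.12 RPKM in miR, against 9.34 to 9.87 RPKM in these 4 PBS libraries and 6.86 and 9.36 RPKM in PBS replicates 7 and 11, and Lum and Col1a1 averaged below 1 RPKM. No marker of either list was at 0 in all libraries, and the part of these cell types in the members' values was not tested. In such tissue RNA, fewer cells of a type and less RNA per cell cannot be told apart. The median GC content of the 14 members was 51.4%, against 44.1% for the other members and 50.6% for all genes tested. Over all 1090 genes in which these 4 PBS libraries lay above the others it was 56.2%.

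**Figure D3:**
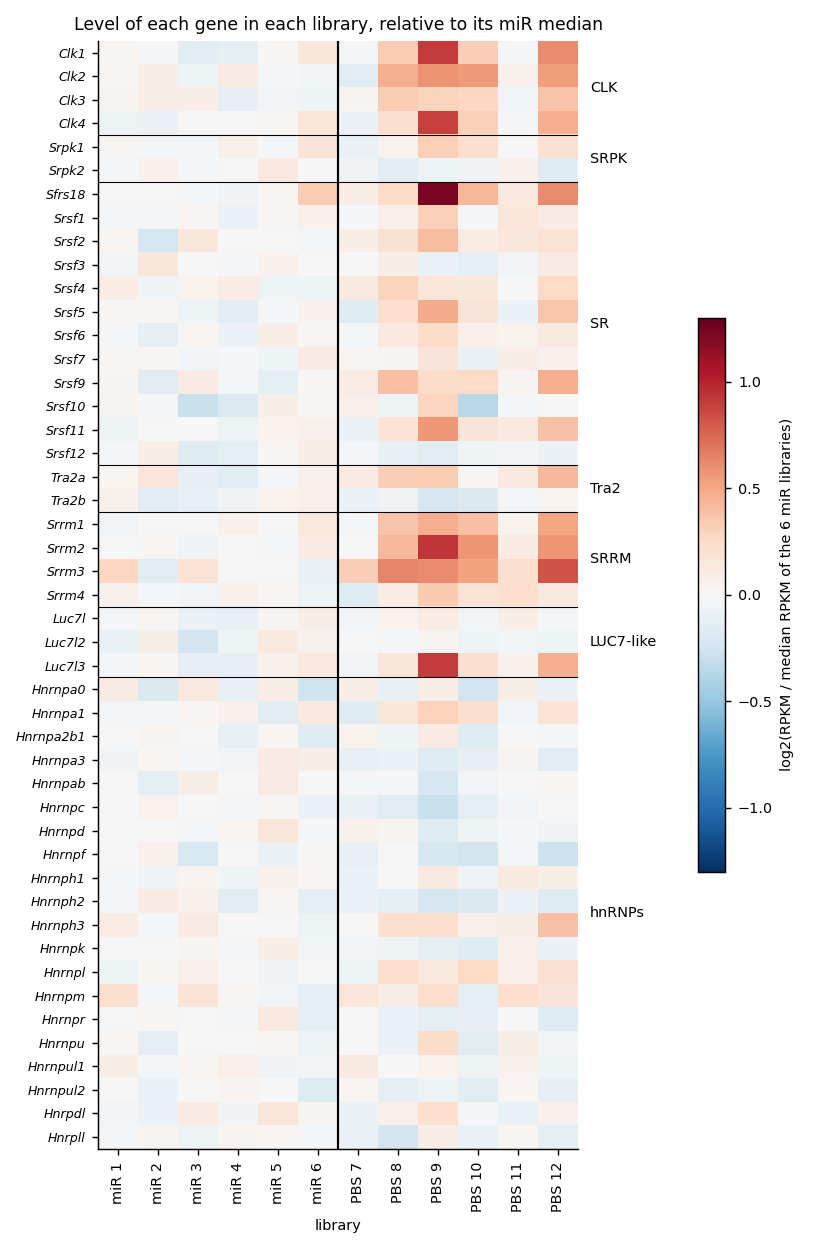
Level of the 47 genes (down, by role) in each of the 12 libraries (across, miR left of PBS), as log2 of RPKM over the gene's median of the 6 miR libraries; red is higher and blue is lower. The red cells gather in PBS replicates 8, 9, 10 and 12 in the CLK, SRRM and part of the SR rows, with PBS replicate 9 darkest in Sfrs18 (a miR median of 13.6 RPKM, against 31.8 RPKM), whereas the hnRNP rows are mostly pale.

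The number of members called by limma turned on PBS replicates 7 and 11. Within PBS these libraries held opposite extremes of 2 marker sums. The 5 oligodendrocyte markers summed to 481 to 790 RPKM in miR, against 1278 RPKM in PBS replicate 7, 320 RPKM in PBS replicate 11 and 325 to 538 RPKM in the other PBS libraries. The PVN neuron markers summed to 1984 to 5160 RPKM in miR, against 2190 RPKM in PBS replicate 7, 5779 RPKM in PBS replicate 11 and 2971 to 5048 RPKM in the other PBS libraries. The part of these cell types in the calls was not tested. Without PBS replicate 7, 7 members passed an adjusted p of 0.05, all lower in miR, against 6.85% of all genes in either direction and 5.02% lower. These were Clk2, Srrm1, Srrm2, Srrm3, Srsf9, Srsf11 and Hnrnpl. Without PBS replicate 11, 4 members passed (Clk3, Srrm2, Srrm3 and Srsf9, all lower), against 3.23% of all genes in either direction and 2.45% lower. Leaving out any other single library left 0 members called. With both left out, 19 members were lower and 0 higher, against 23.4% of all genes in either direction and 11.5% lower, but those libraries were picked on earlier results of these data and the count is a description. With library weights 17 members were lower and 0 higher, against 22.8% of all genes in either direction and 12% lower, and 16 of them were among the 19. The 19 comprised all 4 CLK kinases, all 4 SRRM proteins, 6 SR proteins, 3 hnRNPs, Tra2a and Luc7l3. Without PBS replicates 8, 9, 10 and 12, no member had an unadjusted p under 0.05, against 0.746% of all genes, with 2 PBS libraries left to compare.

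Covariation with Meg3 and Leng8 was examined inside the 6 miR libraries and inside the 8 libraries other than PBS replicates 8, 9, 10 and 12. No r over all 12 is given because the libraries fall into separate clusters of both genes. The family comprised 47 members with 2 genes in 2 sets of libraries, and the exact permutation p-values were adjusted over all 13272 other genes tested. None passed an adjusted p of 0.05 in either set, and the same held for all genes. With 720 pairings of the 6 miR libraries, no exact permutation p of r can fall below 0.00139. A call in miR would have needed many genes at that floor, so the lack of calls there decides nothing. Inside miR, the median Pearson r of the members was 0.09 with Meg3 and -0.01 with Leng8, against -0.01 and 0.05 for all genes. Inside the 8 libraries it was 0.14 with Meg3 and 0.07 with Leng8, against 0.03 and 0.07 for all genes. Without the 2 libraries farthest from the Meg3 median, the members' median r with Meg3 was -0.47 in miR and 0.07 in the 8 libraries, so that the positive median in miR rested on those libraries. After median scaling that value in miR was -0.19, and the members' median r with Leng8 in the 8 libraries turned to -0.08. With Meg3, r exceeded 0.5 in 29.8% of members in the 8 libraries, against 12.8% of all genes, and in 23.4% of members in miR, against 15.2%. With Leng8 the share was 17.02% of members in the 8 libraries, against 15.5% of all genes (10.6% of members after median scaling), and 14.9% in miR, against 18.9%.

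The strongest relations with Meg3 in the miR libraries ran in both directions. Srpk1 had r = 0.94 (exact permutation p = 0.0181) and rho = 0.77 (exact permutation p = 0.103) over 6 miR libraries, and r = 0.92 without the 2 libraries farthest from the Meg3 median, replicates 6 and 2. Srrm1 had r = 0.91 (exact permutation p = 0.0194) and rho = 0.60 (exact permutation p = 0.242), and r = 0.86 without those libraries. Clk4 had r = 0.91 (exact permutation p = 0.0361) and rho = 0.60 (exact permutation p = 0.242), but r = 0.07 without them, so that its relation rested on these libraries. Sfrs18 also had r = 0.91 (exact permutation p = 0.151), but its rho was -0.03 and its r turned to -0.85 without them. Hnrnpc had r = -0.94 (exact permutation p = 0.00139) and rho = -1 (exact permutation p = 0.00278), and Hnrnpa2b1 r = -0.90 with the same exact permutation p-values. Without the 2 libraries r was -0.93 for Hnrnpc and -0.99 for Hnrnpa2b1. Over the 8 libraries the relation of Hnrnpc was weaker, with r = -0.48 (exact permutation p = 0.238) and r = -0.03 without miR replicate 6 and PBS replicate 11, while Hnrnpa2b1 had r = -0.87 (exact permutation p = 0.0129) and r = -0.88 without them. Clk4 had r = 0.87 over the 8 libraries and 0.65 without those libraries, Srpk1 0.87 and 0.75, Srrm1 0.92 and 0.61, and Sfrs18 0.84 and -0.73. All adjusted p-values within miR were 1.00 and those over the 8 libraries 0.977 or more, and replicate 6 had the highest Meg3 level of the miR libraries, 68.1 RPKM. With Leng8, Hnrnpd had r = -0.78 (exact permutation p = 0.0264, adjusted p = 0.947) and rho = -0.94 (exact permutation p = 0.0167, adjusted p = 0.918) in miR, and r = -0.94 without replicates 6 and 3.

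**Figure D4:**
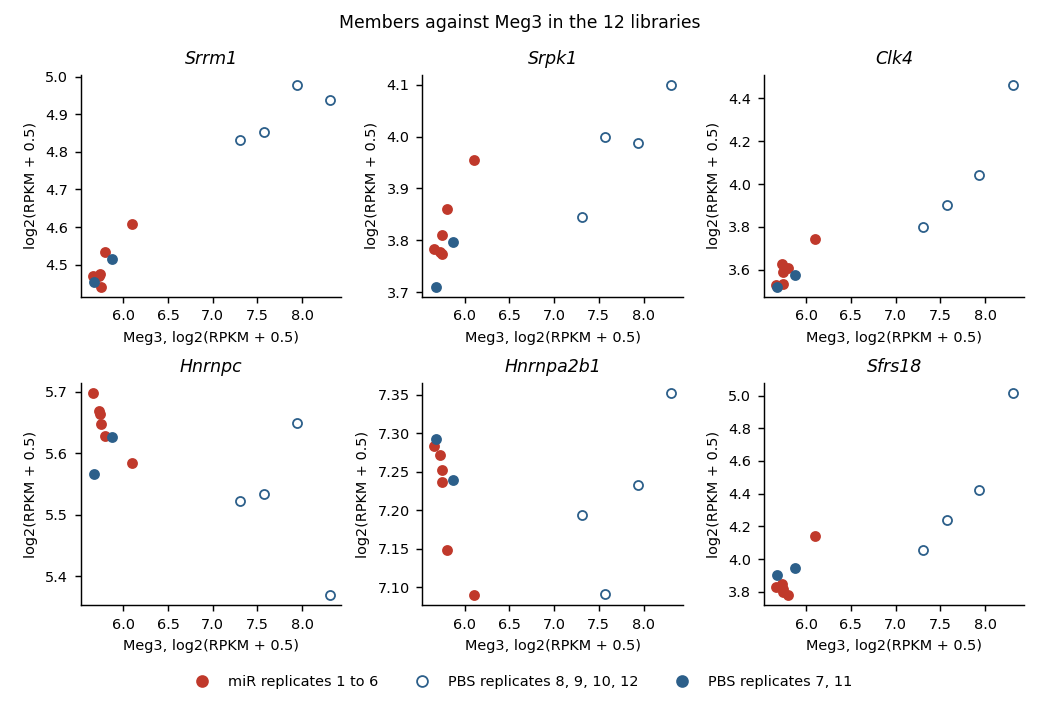
Level of 6 members against Meg3 in the 12 libraries, both as log2(RPKM + 0.5); red points are miR, filled blue points PBS replicates 7 and 11 and open circles PBS replicates 8, 9, 10 and 12. The open circles form a separate cluster at high Meg3 (158 to 316 RPKM) in every panel, apart from the miR points (49.9 to 68.1 RPKM of Meg3), which lie on a falling line in Hnrnpc and Hnrnpa2b1.

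Isoform rows were compared next. Of the 47 members, 21 had more than 1 transcript row, and their 41 further rows were set against the highest row of the same gene. Rows of 1 gene share reads where they share exons, and the assignment of those reads is not given in the sources used here, so a ratio reflects the reads of unshared exons and the row lengths together. In 25 of 41 rows the ratio varied by 5% or less between the 12 libraries, and 16 rows of 12 genes varied more. At row level, limma called 0 of 18289 rows, and among the 88 member rows 25 were lower and 8 higher in miR at an unadjusted p under 0.05, against 20.8% of all rows, 11.7% lower and 9.17% higher. Without PBS replicate 7, 14 member rows passed an adjusted p of 0.05, against 7.67% of all rows (5.6% lower), and without PBS replicate 11, 7 did, against 4.34% (3.17% lower). Without both, 29 did, against 24.5% (12.2% lower), and with library weights 27 did, against 24.7% (12.9% lower); in each case all were lower in miR. Without PBS replicates 8, 9, 10 and 12 no row passed, and no member row had an unadjusted p under 0.05, against 0.733% of all rows. For the ratios, limma called 1 of 5011 (0.02%) and none of the 41 of members. Of these 41, 12 were higher in miR, against 49.8% of all ratios. Most of the 41 were nearly constant, and rows of 1 gene are not separate cases, so that count means little. At an unadjusted p under 0.05, 1 member ratio was lower in miR and 0 were higher, against 6.96% of all ratios, 3.71% lower and 3.25% higher.

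That ratio was of Srsf10, the SR protein that represses splicing when dephosphorylated. NM_010178 over NM_001080387 was 0.559 to 0.630 in miR, median 0.599, against 0.709, 0.622, 0.694 and 0.687 in PBS replicates 8, 9, 10 and 12 and 0.616 and 0.669 in PBS replicates 7 and 11. The groups overlapped through PBS replicates 7 and 9. The log2 difference was -0.14 ± 0.04 (SE, limma adjusted p = 0.592). The next smallest p belonged to Hnrnpa2b1, where NM_016806 over NM_182650 was 0.547 to 0.569 in miR, against 0.591, 0.597, 0.586 and 0.610 in PBS replicates 8, 9, 10 and 12 and 0.544 and 0.549 in PBS replicates 7 and 11. Here the 4 PBS libraries stood above all others although the level of the gene did not, with a log2 difference of -0.06 ± 0.03 (SE, limma adjusted p = 0.710). Without PBS replicates 7 and 11 it was the 1 member ratio that passed, against 0.998% of all ratios (0.639% lower). The PBS libraries left in that fit are those that stood above, and the choice came from earlier results of these data. This call is therefore a description. Srsf1 NM_001078167 over NM_173374 was 0.963 to 0.964 in miR, against 0.964 to 0.967 in PBS (limma adjusted p = 0.722). Hnrnpa3 NM_198090 over NM_053263 was 0.454 to 0.492 in miR, against 0.456 to 0.597 in PBS. Luc7l NM_025881 over NM_028190 was 0.539 to 0.642 in miR and 0.479 to 0.638 in PBS, and Luc7l NR_037905 followed it closely at 0.519 to 0.622 in miR and 0.466 to 0.616 in PBS. The Hnrnpa3 and Luc7l ratios had limma adjusted p from 0.784 to 0.794.

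In several noncoding rows, among them those with the Srsf3 and Srsf7 exons shown above, PBS replicate 9 had the highest ratio. By the gap rule given at the end, it lay apart in Srsf3, Srsf7 and Srsf9 but not in Clk1 or Luc7l. Srsf3 NR_036613 over NM_013663 was 0.964 in PBS replicate 9, against 0.888 to 0.902 in the other 11 libraries. Srsf7 NR_036615 over NM_001195487 was 0.906 in PBS replicate 9, against 0.846 to 0.867 in the other libraries. Clk1 NR_027854 over NM_001042634 was 0.726 in PBS replicate 9, against 0.643 to 0.696 in the other libraries. In Srsf3 the level of the gene was not raised in that library, with 21.9 RPKM in PBS replicate 9, against a PBS median of 22.9. Clk1 NR_027853, which lacks the exon shown, had a ratio near 1 in all libraries, lowest (0.985) in PBS replicate 9. Luc7l NR_037906 over NM_028190 reached 0.457 in PBS replicate 9 and 0.317 to 0.418 in the others, and Srsf9 NR_036616 0.940, against 0.931 to 0.934. Of the 7 noncoding rows of 5 members, 5 had their highest ratio in PBS replicate 9, against 24.1% of the 278 noncoding rows tested. Among the 34 coding rows of members this held for 13, including Hnrnpa3 NM_198090 at 0.597 and Luc7l2 NM_001170848 at 0.843, against 18.0% of all 5011 ratios. Many of these coding ratios were nearly constant, so that a highest library there means little. Of the 11 coding rows that varied by more than 5%, it held for 5, which came from Hnrnpa3, Hnrnpf and Luc7l2. The share among all ratios that varied as much was not worked out. PBS replicate 9 also had the highest Meg3 level of all libraries, and which property of the library goes with these ratios was not tested.

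**Figure D5:**
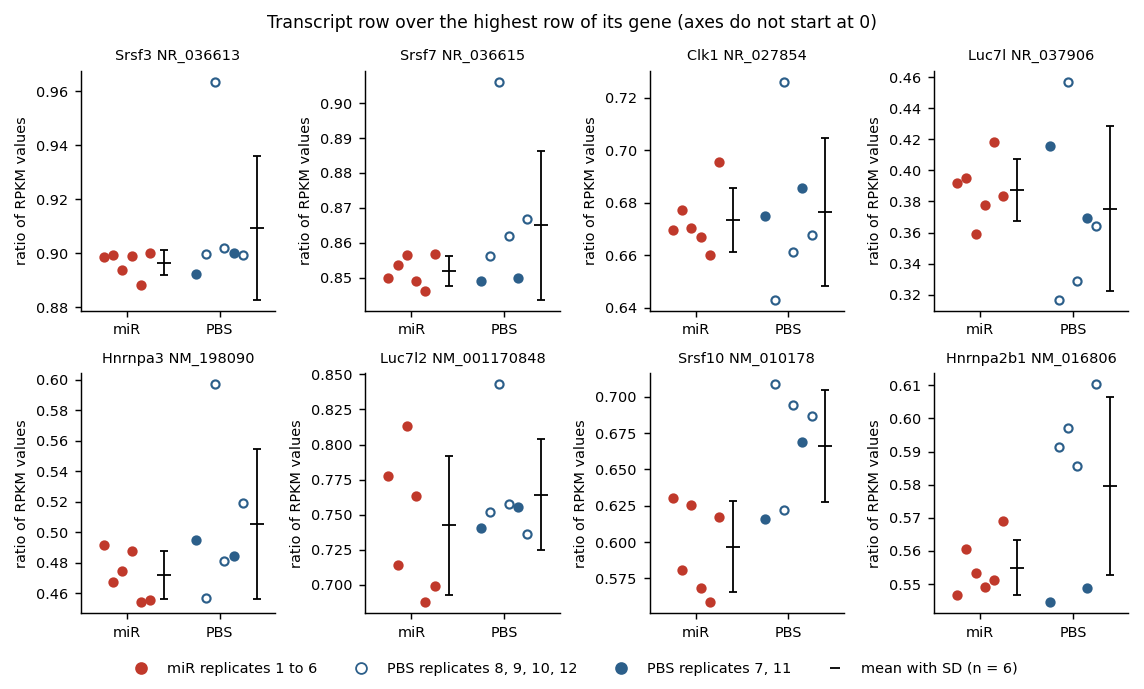
Ratio of a transcript row to the highest row of its gene in each library for 8 rows, miR left of PBS; symbols as in the plot of levels, bars are the mean with SD (n = 6), and the axes do not start at 0. PBS replicate 9 is the single high open circle in Srsf3 NR_036613 (0.964) and Srsf7 NR_036615 (0.906), whereas in Hnrnpa2b1 NM_016806 all 4 open circles (0.586 to 0.610) lie above the rest.

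Other genes of the splicing machinery gave no calls either. Of 109 genes in 7 lists, 102 were tested with limma and 0 passed, while 24 were lower and 4 higher in miR at an unadjusted p under 0.05, where 11.1% of all genes were lower and 9.12% higher. The median log2 difference was -0.04 over these genes. PBS replicates 8, 9, 10 and 12 were all above the other libraries in 17 of the 102 and all below in 9, against 8.21% and 7.94% of all genes, so that the count below was near that of all genes. Of 14 exon junction and SR-related genes tested, 6 were above, among them Acin1 with 22.8 ± 1.05 RPKM in the miR and 30.3 ± 5.41 RPKM in the PBS group (SD, n = 6 each). The U1 protein gene Snrnp70 averaged 42.2 ± 3.14 RPKM in the miR and 69.9 ± 18.6 RPKM in the PBS group (SD, n = 6 each), a log2 difference of -0.68 ± 0.15 (SE, limma adjusted p = 0.174). It had 80.8, 82.0, 72.8 and 89.8 RPKM in PBS replicates 8, 9, 10 and 12, and 46.5 and 47.4 RPKM in PBS replicates 7 and 11. The miR libraries had 38.4 to 46.4 RPKM, so that all lay below every PBS library, as in 0.226% of all genes. None of the 9 Sm core genes, most of which form the ring shared by the spliceosomal snRNPs, lay apart in PBS replicates 8, 9, 10 and 12. Of the 9, 7 had higher values in miR (median 0.05 on the log2 scale). Snrpb averaged 39.3 ± 3.79 RPKM in the miR and 42.7 ± 3.09 RPKM in the PBS group (limma adjusted p = 0.319), and Snrpd1 22.1 ± 0.739 RPKM in the miR and 20.8 ± 2.19 RPKM in the PBS group (limma adjusted p = 0.403). The 12 tri-snRNP genes were higher in 7 and lower in 5, with a median of 0.01, and the 18 branch point genes were higher in 3 and lower in 15, with a median of -0.08. By the rule for naming, which goes by the smallest p, Rbm10, Sf1, Sart1 and Prpf3 of these lists had log2 differences of -0.26, -0.20, -0.20 and -0.20, with limma adjusted p from 0.174 to 0.182. The U1 partner Prpf40b, the SR-related Srrt and the neuronal regulators Celf3 and Celf5 stood at -0.42, -0.23, -0.45 and -0.35, each with limma adjusted p = 0.174. The 8 nonsense-mediated decay genes tested had a median of -0.04, with 0 above and 1 below in the 4 PBS libraries. Upf1, the helicase of that pathway, had a log2 difference of -0.16 and its partner Upf2 one of 0.13 (limma adjusted p = 0.179 and 0.257).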

How the data were processed

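Polyadenylated RNA of PVN punches from 12 animals (6 miR, 6 PBS) was sequenced as single-end libraries from a stranded kit. The authors deposited 1 table of RPKM values per RefSeq transcript. Per the submitters' processing notes the build was mm9 and edgeR was named, without its role. The aligner, the counter and how shared reads were assigned were not given in the sources used here, nor was any further normalization, so a scaling between libraries may already be in the values. Members, lists, named genes and the libraries described apart were chosen with earlier results of these data known. Named genes were the 10 members of smallest p in each direction, a list of kinases and factors, the 5 isoform ratios of smallest p, and the 2 of smallest p per other list.

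A gene was represented by its row of highest mean; 13273 genes and 18289 rows with a mean of at least 1 RPKM were tested. Of 913 rows without symbol, 868 were named by accession, and none was a member. Differences are on the log2(RPKM + 0.5) scale, which understates low genes, from limma 3.58.1 in R 4.3.3 (variance trend, 2-sided, Benjamini-Hochberg over all features). Isoform ratios were log2 of row over highest row, each with 0.5 RPKM added; 610 identical pairs were left out. Ratios in the text are without it. Covariation p-values were enumerated exactly and adjusted over all genes tested, in place of the adjustment over members first written down. Tables and figures were made in Python 3.11.15 with pandas 2.3.3 and matplotlib 3.10.9. The fits were tested on simulated data. At most 6 genes had equal values in any of the 66 pairs of libraries, so none was counted as a copy. Depth was estimated from short chemoreceptor genes: their low values were, within 2%, sums of 2 step sizes per library, read as 2 sequencing runs, which is an inference. Whole reads of other transcripts were not recovered, so no count model was used. Alternatives were pseudocounts of 0.1 and 1 RPKM, filters of 0 and 5 RPKM, no variance trend, library weights, median scaling, quantile normalization, gene means over rows, each library left out and, added after seeing the data, a correction for GC content in 20 bins.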

Additional observations from a re-analysis of the deposited data

Results flagged for a closer look

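In groups of 6 libraries, a highest or lowest library was examined by its gap to the nearest other library over the whole range, against Dixon's critical value; chance gives about 1 in 20 groups. Of 156 groups examined, the levels of 37 named members and all 41 row ratios in both groups, 11 passed, which is near that share, and in 7 of them PBS replicate 9 was the library that lay apart. These were Srsf2 at 54.4 RPKM, and the ratios of Srsf3 NR_036613 at 0.964, Srsf7 NR_036615 at 0.906, Srsf9 NR_036616 at 0.940, Hnrnpc NM_001170981 at 0.992, Luc7l2 NM_001170848 at 0.843 and Luc7l2 NM_138680 at 0.834. The Luc7l2 ratios belong to 1 gene and share its highest row, so they are not separate cases. The ratio of Hnrnpa3 NM_146130 was highest in PBS replicate 10, at 0.988. The others were miR libraries: Hnrnpd at 27.6 RPKM in replicate 5, Srrm2 at 41.6 RPKM in replicate 6 and the ratio of Hnrnpc NM_001170983, lowest in replicate 4 at 0.999. The Hnrnpc and Hnrnpa3 ratios were nearly constant over all libraries (0.987 for Hnrnpa3 NM_146130 in each of the others), so a gap there is small in size.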

How the results depend on the processing

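No paired analysis was possible because miR replicates are numbered 1 to 6 and PBS replicates 7 to 12, so the groups share no number. Members called by limma were 0 at gene level, 0 at row level and 0 among ratios as deposited. With library weights they were 17 genes and 27 rows, against 22.8% of all genes (12% lower) and 24.7% of all rows (12.9% lower). Without PBS replicates 7 and 11 they were 19 genes, 29 rows and 1 ratio. The shares of all features were then 23.4% (11.5% lower), 24.5% (12.2% lower) and 0.998% (0.639% lower). All these members were lower in miR. Leaving out 1 library at a time gave 0 to 7 genes and 0 to 14 rows. Without PBS replicate 7 there were 7 genes and 14 rows, against 6.85% of all genes and 7.67% of all rows. Without PBS replicate 11 there were 4 genes and 7 rows, against 3.23% and 4.34%. Under the other alternatives run for these results the counts stayed at 0. The 14 members with PBS replicates 8, 9, 10 and 12 above all others became 12 after median scaling. No covariation passed, though within miR a call was nearly out of reach. No called value changed sign; of single named members, 44 values passed the threshold under an alternative, all with library weights or without PBS replicate 7, 11 or both, and 29 values changed sign without a call. Library weights are lowered by distance from the group mean, so that count is not separate from leaving libraries out; the cause was not tested. At 22.8 to 45.2 M reads per library the reads behind a single exon could not be recovered, so the counting error of a row ratio is unknown.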
